A study of Mus musculus with 15 samples.

Results

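RNA-seq was used to compare the prenatal brainstem of mice with 1 functional copy of Lmx1b (labelled LMX1B+/-, here Lmx1b+/-) with that of wild-type embryos (labelled LMX1B+/+, here WT). All libraries of these 2 genotypes were taken, which are 3 Lmx1b+/- and 3 WT libraries, or 6 of the 15 libraries of the series. The tissue was taken from the ventilatory centers of C57BL/6 embryos, and the sources used here give neither the embryonic day nor whether each library came from a separate animal, so the p-values measure only the spread between these libraries. The 3 libraries labelled LMX1B-/- (here Lmx1b-/-), from embryos with no functional copy, entered the same statistical fit, and their values are given where they help to place the Lmx1b+/- values. The labels name no treatment for these groups and give the RNA as polyA RNA. The study sequenced these embryos to ask which genes of the developing respiratory centers depend on Lmx1b.

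Lmx1b is a LIM-homeodomain transcription factor, which binds DNA at AT-rich sites and switches on the genes of the cells that carry it. In the hindbrain it is best known for the serotonergic neurons of the raphe, which need it to keep their transmitter genes on, and in the midbrain it acts early in the dopaminergic neurons and at the isthmus, the boundary with the hindbrain. It is also expressed in excitatory neurons of the dorsal hindbrain. The raphe, the noradrenergic groups and the neurons of the medulla together set the drive to breathe. Around birth, brainstem neurons lengthen their axons, build synapses and change their ion channels, while astrocytes and oligodendrocytes mature around them.

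The authors deposited counts per gene, which summed to between 28833130 and 37441679 per library. Levels are given as CPM (counts relative to the library total, after TMM scaling), and 3 counts, the level that a count of 0 still allows, correspond to 0.0676 to 0.109 CPM. Such limits and the counts cover counting error only. Low counts were filtered out by edgeR, and its quasi-likelihood test was run on the 21729 genes left, and a gene is said to rise or fall where its Benjamini-Hochberg adjusted p over all tested genes is under 0.05. All log2 fold changes are Lmx1b+/- over WT unless another contrast is named. As a check of the tissue, the vesicular glutamate transporter Slc17a6 of brainstem excitatory neurons was at 196 to 286 CPM in the 6 libraries.

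Lmx1b itself was not lower in the Lmx1b+/- libraries. It was at 30.5, 11.9 and 14.2 CPM in Lmx1b+/- 1 to 3 and at 22.5, 16.0 and 9.73 CPM in WT 1 to 3. The groups overlapped, and Lmx1b+/- 1 had the highest value of all. The log2 fold change was 0.23 ± 0.33 (SE, edgeR adjusted p = 0.618), with a 95% interval of −0.49 to 0.96, or 0.714-fold to 1.94-fold, and a two-sided exact permutation test of the CPM gave p = 0.7, the smallest that such a test can give with groups of 3 being 0.1. In the 3 Lmx1b-/- libraries it was at 1.45, 1.13 and 0.848 CPM (log2 fold change against WT −3.82). The counts do not tell a transcript of the intact allele from one of the altered allele. Without Lmx1b+/- 1 the log2 fold change of Lmx1b was −0.30 (quasi-likelihood adjusted p = 0.437), and without WT 3 it was −0.02 (quasi-likelihood adjusted p = 0.975). Lmx1b+/- stands here for the libraries labelled so, whose genotype the counts of Lmx1b do not show.

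**Figure D1:**
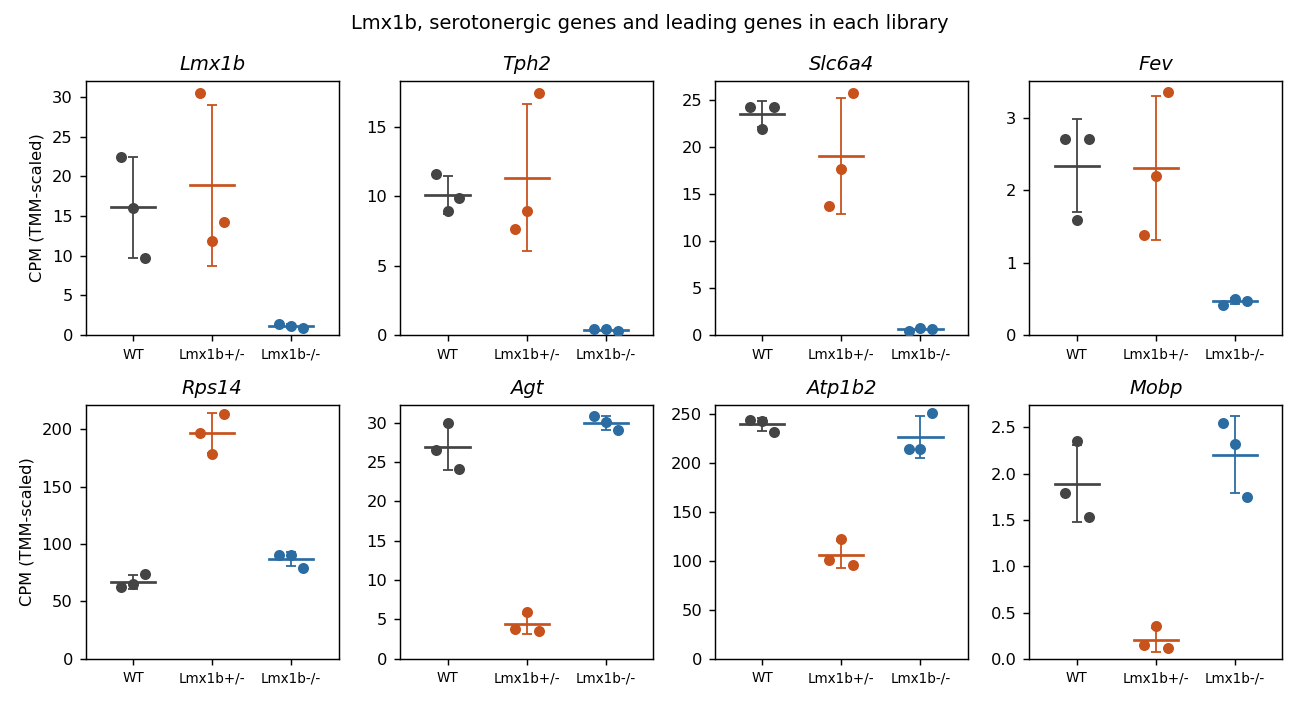
CPM after TMM scaling (y axis, from 0, a separate scale for each gene) of Lmx1b, 3 serotonergic genes and 4 genes with small p in each library, by genotype (x axis); points are libraries, horizontal lines means and error bars SD over 3 libraries. Lmx1b, Tph2, Slc6a4 and Fev overlap between WT and Lmx1b+/- and are low in Lmx1b-/-, while Rps14, Agt, Atp1b2 and Mobp set the Lmx1b+/- libraries apart from both other genotypes.

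Most genes of serotonergic identity did not pass the test in Lmx1b+/-, and 10 of the 14 listed had a negative log2 fold change. Tph2, which makes the first step of serotonin synthesis in the brain, was at 7.67, 8.90 and 17.4 CPM in Lmx1b+/- compared with 11.6, 8.90 and 9.85 CPM in WT (log2 fold change 0.17, quasi-likelihood adjusted p = 0.640, 95% interval −0.38 to 0.72). Slc6a4, the serotonin transporter, was at 13.7, 17.6 and 25.7 CPM compared with 24.2, 21.9 and 24.2 CPM (log2 fold change −0.30, quasi-likelihood adjusted p = 0.233, 95% interval −0.71 to 0.11). The groups overlapped in both genes, and in each the highest value was that of Lmx1b+/- 3. Without Lmx1b+/- 3, Slc6a4 had a log2 fold change of −0.58 (quasi-likelihood adjusted p = 0.0162). Fev, the serotonergic transcription factor, had a log2 fold change of −0.01 (quasi-likelihood adjusted p = 0.979), and Slc18a2, which loads monoamines into vesicles, one of −0.25 (quasi-likelihood adjusted p = 0.238). Against WT the Lmx1b-/- libraries were at −4.75 in Tph2, −5.18 in Slc6a4 and −2.31 in Fev on the same scale.

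Of the 14 serotonergic genes, 0 rose and 2 fell, where 19.4% of all tested genes rose and 17.3% fell. Slc22a3, a low-affinity monoamine transporter, was at 2.53, 2.48 and 3.30 CPM in Lmx1b+/- compared with 5.21, 5.16 and 3.99 CPM in WT, with every Lmx1b+/- value below every WT value (log2 change −0.78 ± 0.18 SE, edgeR adjusted p = 0.00512). The other was Nkx2-2, which is also a gene of oligodendrocyte precursors (log2 change −0.62 ± 0.17 SE, edgeR adjusted p = 0.0133). The median log2 fold change of the list was −0.27, against −0.03 over all tested genes. The count of genes that fell was 1 without WT 3, 5 without WT 2, 4 without Lmx1b+/- 3 and 8 without both WT 2 and Lmx1b+/- 3, a setting chosen after seeing the data. With library size alone it was 6.

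Motif letters were read in the promoter windows of the genes named above, since Lmx1b and other LIM-homeodomain factors bind the core TAATTA. Windows run from 250 bases before to 50 bases after a RefSeq transcript start (build GRCm38.p6), and the sequences below are from RefSeq. TAATTA, which reads the same on both strands, was found in the windows of Fev and of Pfdn5, the latter a prefoldin subunit that the study's text names among the genes tied to Lmx1b, and not in those of Tph2, Slc6a4, Lmx1b or Agt. The study itself matched consensus sequences from a motif database in a wider stretch around the start. The shorter windows and the 1 motif used here therefore cannot decide whether its genes hold such a site. Of the 5 matched genes of that kind in the study's text, Pfdn5 alone held TAATTA in its window, and Cox5b, Eif2s2, Rpl34 and Srp14 did not. The windows that hold it are shown because Pfdn5 rose in Lmx1b+/- while Fev did not pass the test there or in Lmx1b-/- (quasi-likelihood adjusted p = 0.979 and 0.0758), with the motif in capitals.
Fev, chr1:74885359-74885658, minus strand: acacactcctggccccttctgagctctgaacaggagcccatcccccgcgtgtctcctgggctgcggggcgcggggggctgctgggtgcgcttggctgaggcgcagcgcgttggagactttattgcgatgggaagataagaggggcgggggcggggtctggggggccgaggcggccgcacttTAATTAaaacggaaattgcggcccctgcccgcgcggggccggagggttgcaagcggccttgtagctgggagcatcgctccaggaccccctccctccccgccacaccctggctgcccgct
Pfdn5, chr15:102325866-102326165, plus strand: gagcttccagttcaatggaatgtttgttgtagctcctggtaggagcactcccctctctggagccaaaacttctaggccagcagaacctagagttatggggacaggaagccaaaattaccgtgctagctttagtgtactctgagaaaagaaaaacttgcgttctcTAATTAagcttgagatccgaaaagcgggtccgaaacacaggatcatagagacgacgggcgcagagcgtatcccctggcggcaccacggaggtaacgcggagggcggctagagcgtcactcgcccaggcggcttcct
Of the 21729 tested genes, 12845 matched a window by symbol, and 3.73% of these held TAATTA in at least 1 window. The share was 3.85% of the 2183 matched genes that rose and 2.95% of the 2744 that fell. A match describes these letters only.

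Across all genes the Lmx1b+/- libraries stood apart from both other genotypes. Of the 21729 genes tested, 4225 rose (19.4%) and 3752 fell (17.3%), so that 7977 changed (36.7%), and 10015 had an unadjusted p under 0.05. The CPM of the 3 Lmx1b+/- and 3 WT libraries did not overlap in 45.3% of tested genes, higher in 23.4% and lower in 21.9%. A change of at least 2-fold was found in 1307 of the genes that rose (6.02% of all tested) and 463 of those that fell (2.13%). In Lmx1b-/- against the same WT libraries, 4 genes changed (0.0184%), and between Lmx1b+/- and Lmx1b-/- 5544 did (25.5%), comparisons that share libraries with this one. Along the first principal component, which held 41.8% of the variance, the Lmx1b+/- libraries lay at 31.7 to 66.0, the Lmx1b-/- libraries at −19.7 to −8.62 and the WT libraries at −39.1 to −30.6. The fit without Lmx1b+/- 3 called the fewest genes of the fits without 1 library, 3315 higher and 2596 lower. Of the 7977 genes, 5759 were called again in that fit. All 7977 kept their sign, which says little, since they were chosen in a fit that shares these libraries.

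2 properties of the data moved with these changes. Gene length, as implied by the authors' RPKM, ordered the fold changes: the median log2 fold change was 0.72 in the shortest decile of genes (56 to 767 bases) and −0.33 in the longest decile (8787 bases and more), where 1097 rose and 47 fell, and 108 rose and 1013 fell, respectively. In Lmx1b-/- against WT the same medians were 0.13 and −0.04. Within single libraries, the shortest decile exceeded the longest decile by 0.887 to 1.24 on the log2 scale in Lmx1b+/-, relative to the WT mean, by 0.152 to 0.236 in Lmx1b-/- and by −0.0602 to 0.0472 in WT. Over deciles of GC content the median log2 fold change went from 0.21 in the lowest to −0.28 in the highest. With both the length and the GC trend removed from each library, a setting chosen after seeing the data, 3479 genes rose and 2518 fell. The second property is the scaling: with library size alone, 2054 genes rose and 5816 fell (26.1% of the changed genes rose, against 53.0% with TMM), since all log2 fold changes moved by a median of −0.24. The part of length, GC content and RNA quality in the fold changes was not tested, and values with these trends removed are given below for the groups whose counts or medians they moved most.

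**Figure D2:**
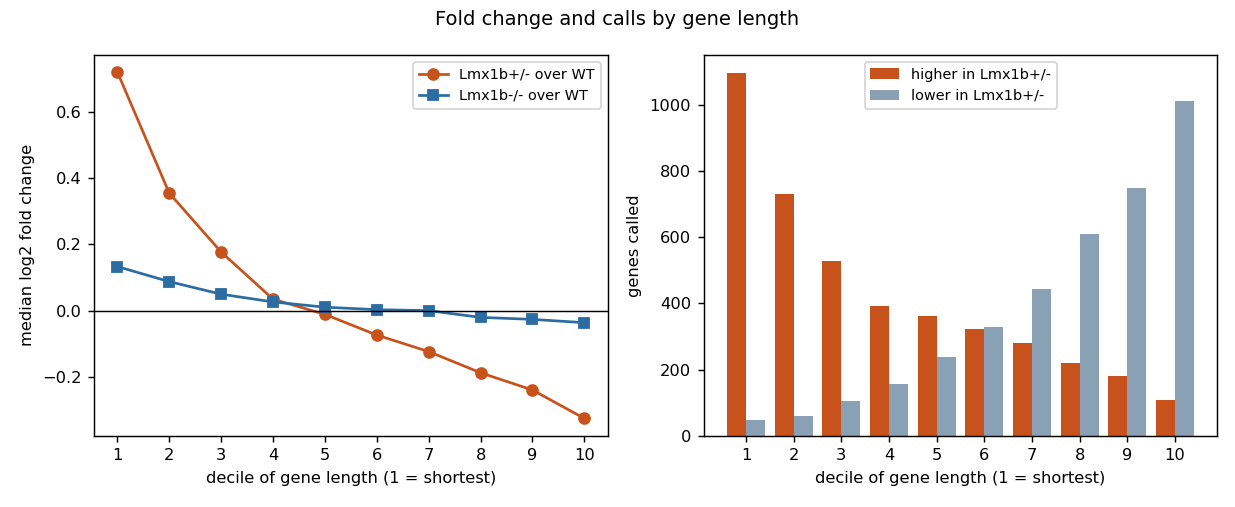
Left, median log2 fold change (y axis) of tested genes in each decile of gene length (x axis, 1 the shortest) for Lmx1b+/- and for Lmx1b-/- over WT; right, number of genes that rose or fell in Lmx1b+/- in the same deciles. The Lmx1b+/- line runs from 0.72 to −0.33 and the Lmx1b-/- line from 0.13 to −0.04, and 1097 genes of the shortest decile rose while 1013 of the longest fell.

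Genes of the machinery that makes proteins rose. Of 84 tested genes of cytosolic ribosomal proteins, 82 rose and 0 fell, with a median log2 fold change of 1.25, and these 82 were also higher than in Lmx1b-/-. Rps14, a protein of the small ribosomal subunit, was at 197, 179 and 214 CPM in Lmx1b+/- compared with 62.3, 65.0 and 73.6 CPM in WT, a gap far wider than the spread within either group (log2 change 1.55 ± 0.11 SE, edgeR adjusted p = 3.78e-06). In Lmx1b-/- it was at 90.1, 90.7 and 79.6 CPM. Rps25 (log2 fold change 1.54), Rps27a (1.51), Rpl7 (1.49), Rpl32 (1.45), Rpl37 (1.41), Rpl19 and Rps3a1 (1.32 each) and Fau (1.26) were also among the 12 non-overlapping genes with the smallest p of those that rose. Of the remaining 2, which did not pass the test, Rps10 had a log2 fold change of 0.36. Ribosomal protein genes have many near-identical processed copies, such as Rps3a2 beside Rps3a1, so reads may be split among them. With the length and GC trends removed, 79 of the 84 rose, with a median of 0.99.

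Factors of translation, folding and protein export rose with them. Of 25 initiation factors 18 rose and 1 fell (median log2 fold change 0.44). Eif3e, a subunit of the scaffold that loads mRNA onto the ribosome, was at 142, 130 and 162 CPM compared with 56.0, 59.7 and 64.5 CPM in WT (log2 change 1.27 ± 0.10 SE, edgeR adjusted p = 3.96e-06). All 3 Lmx1b+/- values were above all WT values. The exception was Eif4g1, the scaffold of the cap-binding complex (log2 fold change −0.34, quasi-likelihood adjusted p = 0.0223). With library size alone, 8 of the 25 rose.

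Of 18 genes for prefoldin, tubulin folding and the signal recognition particle with its translocon, 16 rose and 1 fell (median 0.82). Tbca, a tubulin folding cofactor, was at 46.9, 46.6 and 55.1 CPM compared with 17.7, 18.8 and 19.1 CPM (log2 change 1.42 ± 0.10 SE, edgeR adjusted p = 3.96e-06). Sec61g, a small subunit of the translocon, had a log2 fold change of 1.57, while Sec61a1, the large pore subunit, fell by 0.36. All 24 proteasome subunits rose (median 0.92), among them Psma7 of the core particle at 122, 116 and 140 CPM compared with 63.2, 55.2 and 63.0 CPM (log2 change 1.06 ± 0.10 SE, edgeR adjusted p = 7.13e-06).

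The genes of energy metabolism in mitochondria rose too, from both genomes. Of 80 nuclear genes for the respiratory chain and ATP synthase, 74 rose and 0 fell (median log2 fold change 0.96), and of 77 mitochondrial ribosomal proteins 65 rose and 0 fell (median 0.57, and 30 with library size alone). Ndufa4 was at 128, 129 and 164 CPM compared with 56.9, 55.3 and 51.9 CPM in WT (log2 change 1.36 ± 0.11 SE, edgeR adjusted p = 3.96e-06). Of the 13 protein genes of the mitochondrial genome, 12 rose and 0 fell (median 1.27), and their summed level was 76471 to 133820 CPM in Lmx1b+/-, 34861 to 49039 CPM in WT and 49591 to 55404 CPM in Lmx1b-/-. After removal of both trends, 9 of the 13 rose and 1 fell, with a median of 0.67. mt-Nd3, a subunit of complex I, was at 547, 464 and 716 CPM compared with 162, 192 and 185 CPM (log2 change 1.68 ± 0.16 SE, edgeR adjusted p = 9.92e-06). All mitochondrial transcripts took 9.58% to 14.7% of all counts in Lmx1b+/- and 5.57% to 6.74% in WT. Of 21 genes of glycolysis and hypoxia 3 rose and 7 fell, where 19.4% of all tested genes rose and 17.3% fell. Pgk1 (log2 fold change 0.75) was among those that rose and Pfkp (−0.93) among those that fell. The count that rose was 1 without WT 3, without Lmx1b+/- 3 or with library size alone, and 6 rose and 4 fell with the length and GC trends removed.

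The study's text names 6 genes of its Lmx1b interactome as examples with roles in proliferation and development, and all 6 rose in Lmx1b+/-. The study chose them on libraries of this experiment, so the count is not independent evidence of a direction. Rpl34 was at 83.1, 85.3 and 100.3 CPM in Lmx1b+/- compared with 31.8, 27.5 and 34.9 CPM in WT (log2 change 1.51 ± 0.11 SE, edgeR adjusted p = 3.96e-06). Pfdn5, whose promoter window is shown above, was at 112, 109 and 140 CPM compared with 50.05, 45.9 and 57.3 CPM (log2 change 1.23 ± 0.12 SE, edgeR adjusted p = 9.36e-06). Rpl21 (1.42), Cox5b of complex IV (1.15), Srp14 of the signal recognition particle (1.09) and Eif2s2, which brings the initiator tRNA (1.09), followed. In Lmx1b-/- over WT the log2 fold changes of the 6 lay between 0.31 and 0.48, and 0 of them changed.

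**Figure D3:**
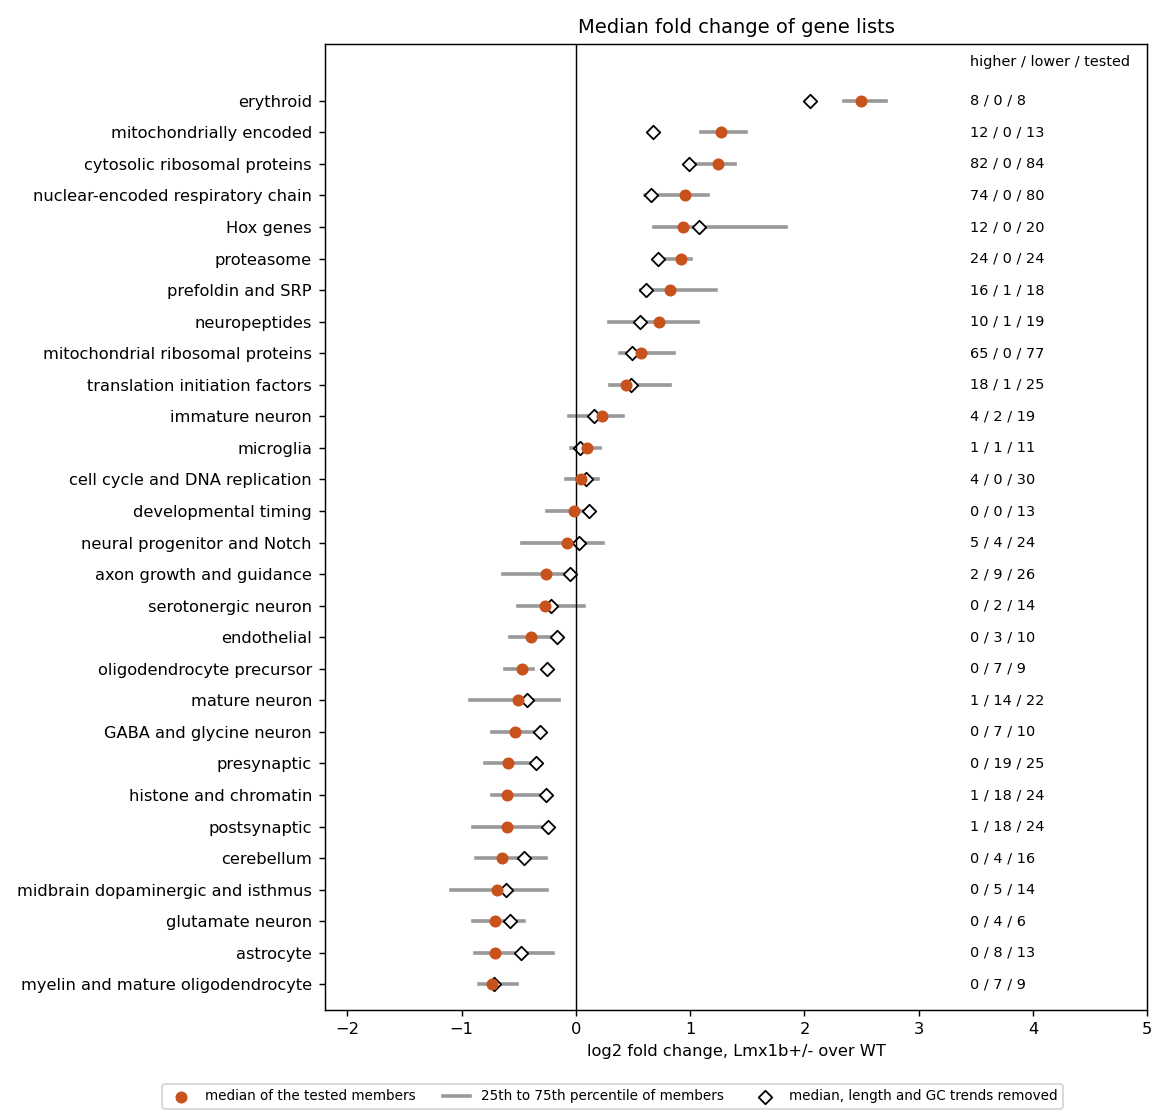
Median log2 fold change of Lmx1b+/- over WT (x axis, filled circles) for the tested members of 29 gene lists (y axis), with the 25th to 75th percentile of members as bars and the median after removal of the length and GC trends as open diamonds; the numbers count members that rose, fell and were tested. Erythroid, ribosomal and mitochondrial lists lie to the right, synaptic and glial lists to the left, and the diamonds lie mostly nearer to 0.

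Many genes of the synapse fell. Of 25 presynaptic genes 19 fell and 0 rose (median log2 fold change −0.60), and of 24 postsynaptic genes 18 fell and 1 rose (median −0.61). Bsn, a scaffold of the active zone, was at 95.1, 96.7 and 81.3 CPM in Lmx1b+/- compared with 221, 180 and 160 CPM in WT (log2 change −1.04 ± 0.13 SE, edgeR adjusted p = 5.34e-05). Syn1, which tethers synaptic vesicles, was at 115, 128 and 103 CPM compared with 240, 212 and 223 CPM (log2 change −0.96 ± 0.12 SE, edgeR adjusted p = 6.80e-05). In both genes the groups were far apart, with the Lmx1b-/- libraries at 196 to 252 CPM in Syn1. On the receiving side Shank3, a scaffold of excitatory synapses (log2 fold change −1.13), and the NMDA receptor subunits Grin1 (−0.99) and Grin2b (−0.90) fell. Not every synaptic gene took part: Snap25, of the fusion complex, had a log2 fold change of 0.03 (quasi-likelihood adjusted p = 0.877), and Gphn, the scaffold of inhibitory synapses, rose by 0.30, a call that was lost without WT 1, WT 2, Lmx1b+/- 1 or Lmx1b+/- 3 and with library size alone. With the length and GC trends removed, 13 presynaptic and 9 postsynaptic genes fell. In bulk tissue, fewer cells of a type and less RNA per cell cannot be told apart, here and below.

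Several of the 12 non-overlapping genes with the smallest p of those that fell act in neuronal excitability and the cytoskeleton. Gabbr2, a subunit of the metabotropic GABA receptor, was at 90.7, 88.7 and 84.7 CPM in Lmx1b+/- compared with 199.99, 184 and 182 CPM in WT (log2 change −1.10 ± 0.10 SE, edgeR adjusted p = 6.24e-06). Cacna1a, the pore of P/Q-type calcium channels, was at 42.3, 42.6 and 32.5 CPM compared with 91.2, 90.7 and 83.0 CPM (log2 change −1.18 ± 0.12 SE, edgeR adjusted p = 1.29e-05). Map1a, a microtubule protein of mature neurons (−1.10), Nos1, the neuronal nitric oxide synthase (−1.07), Igsf9b, an adhesion protein of inhibitory synapses (−1.20), and the Ras activators Rasgrf1 (−1.11) and Rasgrf2 (−0.88) belong to the same set. The remaining ones are Flrt1, Cx3cl1 and Arhgap26, with log2 fold changes of −1.20, −1.16 and −1.06, and Agt and Atp1b2, which are described with the astrocytes.

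Markers of neuronal maturity mostly fell. Of 22 mature neuron genes 14 fell and 1 rose (median −0.51). Slc12a5, the chloride exporter that makes GABA inhibitory, had a log2 fold change of −1.07 (SE 0.14, quasi-likelihood adjusted p = 9.40e-05), Scn8a, the sodium channel of mature axon initial segments, one of −0.97, and Nefh, the heavy neurofilament, one of −0.83. The light neurofilament Nefl went the other way, at 507, 566 and 656 CPM in Lmx1b+/- compared with 338, 442 and 361 CPM in WT (log2 change 0.60 ± 0.14 SE, edgeR adjusted p = 0.00471). With library size alone, 0 of the 22 rose and 15 fell. With the length trend removed 9 fell, and with the length and GC trends removed 12 fell.

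Of 19 immature neuron genes 4 rose and 2 fell (median 0.23), where 19.4% of all tested genes rose and 17.3% fell. Those that rose act in growing axons: Gap43 of the growth cone was at 907, 705 and 920 CPM compared with 542, 621 and 623 CPM in WT (log2 change 0.50 ± 0.13 SE, edgeR adjusted p = 0.00890), and Tubb2b (0.54), Stmn2 (0.44) and Stmn1 (0.38) rose as well. Those that fell were Neurod1 (−0.96) and Nhlh1 (−0.68), transcription factors of newborn neurons. These counts depended on the scaling and on single libraries. With library size alone 0 of the 19 rose and 3 fell, with a median of −0.01. Without WT 1 or without Lmx1b+/- 1, 2 rose and 1 fell. Of 26 genes of axon growth and guidance 9 fell, among them Robo1 (−0.51) and the adhesion protein L1cam (−0.77), and 2 rose (median −0.26). With library size alone 16 fell and 0 rose, and with the length and GC trends removed 6 fell, with a median of −0.06. Of 13 genes of developmental timing 0 passed the quasi-likelihood test and 2 had an unadjusted p under 0.05.

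Transmitter genes of inhibitory and of excitatory neurons fell. Of 10 genes of GABA and glycine neurons 7 fell and 0 rose (median −0.53). Slc32a1, which fills vesicles with GABA and glycine (log2 fold change −0.73), Gad1 (−0.49) and Gad2 (−0.57), which make GABA, and the glycine transporter Slc6a9 (−0.74) were among them. Slc6a5, the neuronal glycine transporter, was at 41.9, 39.3 and 57.9 CPM compared with 60.2, 129 and 51.2 CPM, so that the groups overlapped (log2 fold change −0.79). Of 6 genes of glutamate neurons 4 fell and 0 rose (median −0.71), among them Slc17a7 and Slc17a8 (−0.54). Slc17a6, the main vesicular transporter here, had a log2 fold change of 0.06 (95% interval −0.22 to 0.35), and Slc17a7, another vesicular glutamate transporter, was at 0.470, 1.26 and 0.510 CPM compared with 5.24, 2.60 and 1.78 CPM (log2 change −2.08 ± 0.44 SE, edgeR adjusted p = 0.00277). With the length and GC trends removed, 4 of the 10 inhibitory genes fell.

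Neuropeptide genes rose. Of 19 tested, 10 rose and 1 fell, with a median log2 fold change of 0.73. Grp, the gastrin-releasing peptide that acts in sighing and itch circuits, was at 9.01, 5.71 and 7.20 CPM in Lmx1b+/- compared with 2.57, 2.74 and 3.29 CPM in WT (log2 change 1.34 ± 0.19 SE, edgeR adjusted p = 0.000173). Tac1, the substance P precursor of the respiratory medulla, was at 57.4, 35.3 and 33.6 CPM compared with 20.5, 16.0 and 23.4 CPM (log2 change 1.07 ± 0.19 SE, edgeR adjusted p = 0.000883). Every Lmx1b+/- value was above every WT value in both. Calca (1.07), Penk (0.77) and Nts (0.51) also rose, and Tac2 fell by 1.32. Cck and Npy, both at 1.40, rested mainly on Lmx1b+/- 1, which was at 44.9 CPM in Cck against 10.7 and 13.8 CPM in Lmx1b+/- 2 and 3. With the length trend removed, 5 of the 19 rose, and with the length and GC trends removed 7 rose.

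Other markers of the respiratory and sensory hindbrain mostly did not change, where 19.4% of all tested genes rose and 17.3% fell. Of 19 factors and receptors of the respiratory hindbrain 2 rose, Grp and Pbx3 (log2 fold change 0.38), and 2 fell, Evx2 (−0.80) and the opioid receptor Oprm1 (−0.72). Of 15 dorsal sensory genes 3 rose: Tac1, Prrxl1 and Isl1. Prrxl1, which marks dorsal excitatory neurons that also carry Lmx1b, was at 50.9, 18.3 and 11.9 CPM in Lmx1b+/- compared with 12.1, 8.73 and 7.53 CPM in WT (log2 change 1.52 ± 0.40 SE, edgeR adjusted p = 0.00966), where the groups overlapped at Lmx1b+/- 3. In Lmx1b-/- it was at 3.10 to 4.22 CPM. Of 11 genes of cholinergic motor neurons 2 rose and 2 fell, and Chat, which makes acetylcholine, had a log2 fold change of 0.19 with a 95% interval of −0.30 to 0.68.

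Astrocyte genes held the gene with the smallest p of those that fell. Agt, the angiotensin precursor that astrocytes of the brainstem secrete, was at 3.76, 5.94 and 3.54 CPM in Lmx1b+/- compared with 26.6, 30.0 and 24.1 CPM in WT (means 4.41 ± 1.32 and 26.9 ± 2.96 CPM, SD, n = 3). The Lmx1b-/- libraries, at 30.8, 30.1 and 29 CPM, were on the side of WT. The log2 fold change was −2.60 ± 0.17 (SE, edgeR adjusted p = 3.78e-06). Of 13 astrocyte genes 8 fell and 0 rose (median −0.71). Atp1b2, a subunit of the sodium pump of astrocytes, was at 101, 122 and 96.1 CPM compared with 244, 243 and 232 CPM (log2 change −1.17 ± 0.11 SE, edgeR adjusted p = 1.05e-05). Gfap, the filament of maturing astrocytes, was at 7.31, 17.2 and 7.92 CPM compared with 29.9, 27.8 and 24.1 CPM (log2 change −1.33 ± 0.28 SE, edgeR adjusted p = 0.00233). The other 5 did not pass the test. After removal of both trends, 6 fell with a median of −0.48.

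Oligodendrocyte genes fell along the lineage. Of 9 genes of the precursor stage 7 fell, among them Gpr17, which marks cells about to differentiate, at 31.5, 33.1 and 35.5 CPM compared with 60.5, 78.4 and 51.1 CPM in WT (log2 change −0.92 ± 0.13 SE, edgeR adjusted p = 0.000164). With the length and GC trends removed, 1 of the 9 fell, and 4 fell without Lmx1b+/- 1. Of 9 myelin genes 7 fell and 0 rose (median −0.74). Mobp, a late myelin gene, was at 0.145, 0.355 and 0.120 CPM compared with 1.79, 2.36 and 1.53 CPM (log2 change −3.16 ± 0.38 SE, edgeR adjusted p = 4.61e-05). Mbp, a main protein of compact myelin, was at 35.6, 39.6 and 35.5 CPM compared with 64.0, 68.1 and 52.5 CPM (log2 change −0.74 ± 0.11 SE, edgeR adjusted p = 0.000199). The groups did not overlap in any of the 7. The count was 3 without WT 1 and 4 without WT 2, Lmx1b+/- 1 or Lmx1b+/- 3, and 4 without both WT 2 and Lmx1b+/- 3.

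Progenitor genes moved in both directions, and few cell cycle genes changed. Of 24 progenitor and Notch genes 5 rose and 4 fell (median −0.08), where 19.4% of all tested genes rose and 17.3% fell. Fabp7, a lipid-binding protein of radial glia, was at 798, 950 and 1446 CPM compared with 407, 412 and 431 CPM in WT (log2 change 1.35 ± 0.18 SE, edgeR adjusted p = 0.000114), and Id1 (0.82), Id3 (0.60), Prom1 (0.76) and Nes (0.34) rose as well. Notch1 (−0.60), Sox1 (−0.56), Sox3 (−0.62) and Msi1 (−0.48) fell. Without WT 1, Lmx1b+/- 1 or Lmx1b+/- 3, 0 of the 24 fell, and 9 fell without Lmx1b+/- 2. After removal of both trends, 8 rose and 0 fell, with a median of 0.03. Of 30 genes of the cell cycle and DNA replication 4 rose and 0 fell (median 0.05), and these, Pcna (0.85), Rrm1 (0.48), Cdk1 (0.75) and Tyms (0.53), act in S phase or at entry to mitosis. Mki67, the common marker of cycling cells, had a log2 fold change of −0.29 with a 95% interval of −0.66 to 0.08. Without Lmx1b+/- 1, 7 of the 30 rose, without Lmx1b+/- 2 4 rose and 4 fell, and with library size alone 1 rose and 2 fell. Without both WT 2 and Lmx1b+/- 3, 2 rose.

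Chromatin regulators were a further group that fell, 18 of 24, with 1 that rose (median −0.60). Kmt2a, a histone methyltransferase, was at 96.0, 100.2 and 79.1 CPM compared with 168, 166 and 153 CPM in WT (log2 change −0.82 ± 0.12 SE, edgeR adjusted p = 0.000152), and Chd7 (−0.84), Arid1b (−0.61) and Crebbp (−0.67) fell as well. Ezh2, the methyltransferase of the polycomb complex, rose by 0.33, a call that was lost without WT 1, WT 2, Lmx1b+/- 1 or Lmx1b+/- 2 and with library size alone. These are long transcripts, and with the length and GC trends removed 7 of the 24 fell. Of 16 nuclear-retained RNAs, which bear on RNA quality, 5 fell and 0 rose. With the length trend removed 4 rose and 0 fell, and with the length and GC trends removed 1 rose and 1 fell. Without WT 3 or without Lmx1b+/- 3, 1 fell, and without both WT 2 and Lmx1b+/- 3, 1 rose and 0 fell. Malat1 was at 1137 to 1710 CPM in Lmx1b+/- compared with 839 to 1309 CPM in WT (log2 fold change 0.38, quasi-likelihood adjusted p = 0.115).

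Red cell genes had the highest median of the lists. All 8 erythroid genes that passed the filter, of 12 with an identifier, rose, with a median log2 fold change of 2.49. Hbb-bs, an adult beta globin, was at 2562, 1393 and 3542 CPM in Lmx1b+/- compared with 195, 355 and 424 CPM in WT (log2 change 2.94 ± 0.37 SE, edgeR adjusted p = 6.93e-05). Alas2, which starts heme synthesis in red cells, was at 57.0, 33.4 and 55.5 CPM compared with 6.75, 11.6 and 14.8 CPM (log2 change 2.12 ± 0.30 SE, edgeR adjusted p = 0.000146). The Lmx1b-/- libraries lay between, at 431, 519 and 882 CPM in Hbb-bs. Hbb-y, the globin of the primitive red cells of the early embryo, had 26, 11 and 50 counts in Lmx1b+/- and 0, 0 and 2 in WT. The paired globin genes Hbb-bs and Hbb-bt, and Hba-a1 and Hba-a2, are near-identical, so the split of reads within a pair is uncertain.

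**Figure D4:**
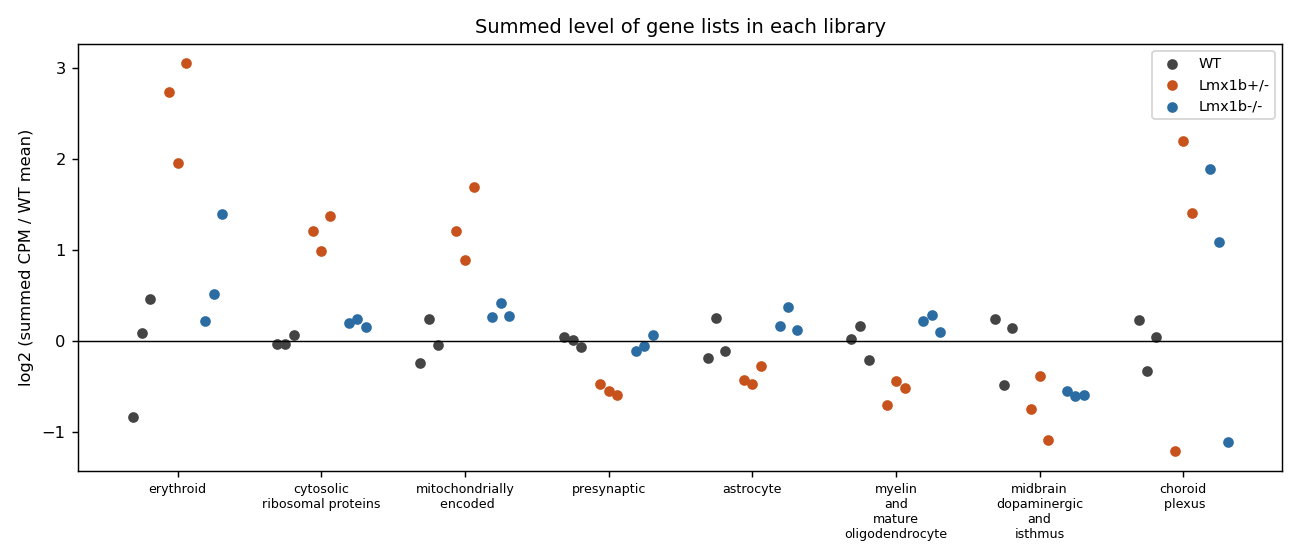
Summed CPM of the tested members of 8 gene lists in each library, as log2 of the ratio to the WT mean (y axis; 0 is the WT mean), by list (x axis) and genotype (colour); each point is 1 library. The Lmx1b+/- points of the erythroid, ribosomal and mitochondrial lists are above all WT points and those of the presynaptic and myelin lists below, while choroid plexus genes range from −1.21 to 2.20 within Lmx1b+/-.

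Among markers of other tissues, those of choroid plexus varied by library, while some of muscle and the bone gene Ibsp were higher in every Lmx1b+/- library. The summed level of 12 choroid plexus genes was 173, 1830 and 1061 CPM in Lmx1b+/- 1 to 3 and 318 to 467 CPM in WT, so that Lmx1b+/- 1 was below and Lmx1b+/- 2 and 3 above every WT library. Ttr, the main secreted protein of this tissue, was at 63.4, 1511 and 881 CPM in them (log2 fold change 1.58, quasi-likelihood adjusted p = 0.169). Of 19 skeletal muscle genes 5 rose and 1 fell, all at low levels: Mylpf was at 1.85, 1.74 and 3.00 CPM compared with 0.422 to 0.589 CPM in WT. The summed level of the 19 was 33.9, 34.2 and 37.4 CPM in Lmx1b+/- and 23.6 to 29.8 CPM in WT. Ibsp, a bone matrix gene, was at 2.93, 14.5 and 11.5 CPM compared with 0.246, 0.520 and 0.225 CPM (log2 change 4.90 ± 0.57 SE, edgeR adjusted p = 3.72e-05). Of 10 cartilage and bone genes 2 rose, Ibsp and Sp7 (1.43), and 2 fell, Col9a2 (−0.58) and Col11a1 (−0.45), with a median of −0.05. Among all tested genes 19.4% rose and 17.3% fell. The summed level of the 10 was 77.6, 145 and 117 CPM in Lmx1b+/- 1 to 3 and 114 to 125 CPM in WT. Of 12 genes of the meninges 4 fell and 0 rose, where 17.3% of all tested genes fell. Of the 12, 0 fell without Lmx1b+/- 1, WT 1 or Lmx1b+/- 3, 1 without WT 3, and 1 without both WT 2 and Lmx1b+/- 3. What share of other results these cells account for was not tested.

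Some markers of vessels fell, where 17.3% of all tested genes fell, and those of microglia moved little. Of 10 endothelial genes 3 fell and 0 rose (median −0.40): the growth factor receptors Kdr (log2 fold change −0.90) and Flt1 (−0.97) and the junction protein Cdh5 (−0.60). Without Lmx1b+/- 1, 5 of the 10 fell, and with library size alone 7 did. Of 11 microglial genes 1 rose, the adaptor Tyrobp (0.61), and 1 fell, the receptor Csf1r (−0.63), with a median of 0.10. The summed microglial level was 101 to 108 CPM in Lmx1b+/- and 103 to 124 CPM in WT.

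Hox genes, whose numbered paralog groups mark successively more caudal levels of hindbrain and spinal cord, rose in part. Of 28 listed 20 passed the filter, and of these 12 rose and 0 fell (median log2 fold change 0.93). The libraries of the genotype were not alike. Summed over the 2 tested genes of paralog group 7, the level was 35.5 and 20.9 CPM in Lmx1b+/- 1 and 2 but 2.31 CPM in Lmx1b+/- 3, against 2.08, 4.57 and 4.33 CPM in WT and 3.94, 9.03 and 9.99 CPM in Lmx1b-/-. Hoxb8 was at 91.2, 54.6 and 3.72 CPM in Lmx1b+/- compared with 9.28 to 13.0 CPM in WT (log2 change 2.08 ± 0.70 SE, edgeR adjusted p = 0.0327). The 3 genes that did not overlap between the groups were Hoxb2 (0.97), Hoxb3 (0.81) and Hoxa7 (3.66). Of the 20, 7 rose without Lmx1b+/- 1 or without WT 3, and 19 rose without both WT 2 and Lmx1b+/- 3. The level of the dissection along the neuraxis was not given, and its part in the fold changes was not tested.

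**Figure D5:**
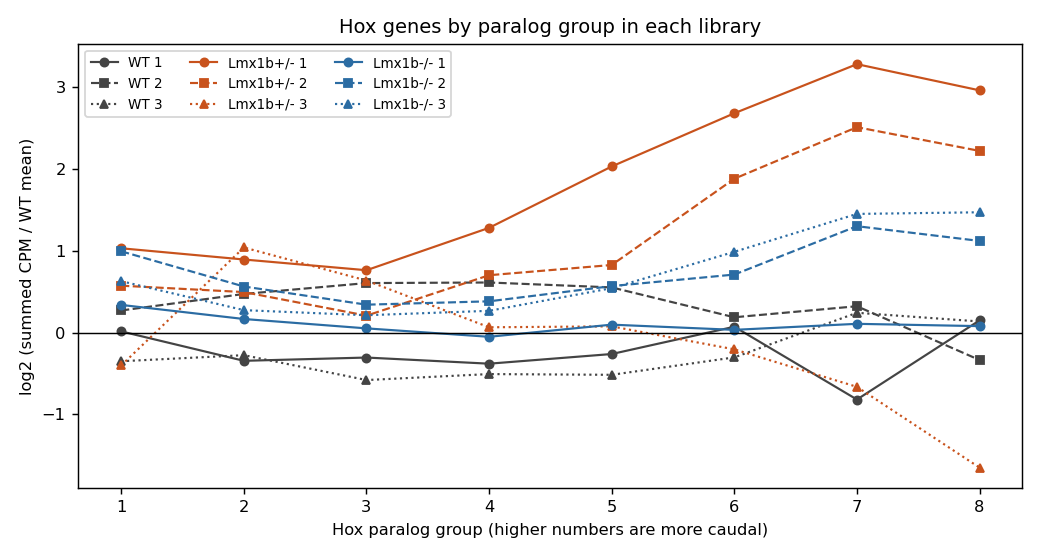
Summed CPM of the tested Hox genes of each paralog group (x axis, 1 to 8), as log2 of the ratio to the WT mean (y axis), with 1 line per library. Lmx1b+/- 1 and 2 climb to 3.28 and 2.51 at group 7, Lmx1b+/- 3 falls to −1.65 at group 8, and the WT lines stay between −0.82 and 0.61.

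At the rostral end, genes of the midbrain and isthmus were lower, with WT libraries that differed among themselves. Of 14 tested genes 5 fell and 0 rose (median log2 fold change −0.69). Slc6a3, the dopamine transporter, was at 0.543, 0.968 and 0.240 CPM in Lmx1b+/- compared with 6.05, 0.935 and 5.30 CPM in WT 1 to 3 (log2 change −2.82 ± 0.58 SE, edgeR adjusted p = 0.00220). Pax5, an isthmus factor, was at 4.74, 14.9 and 2.85 CPM compared with 33.5, 5.85 and 38.4 CPM (log2 change −1.79 ± 0.60 SE, edgeR adjusted p = 0.0314). WT 2 was within the Lmx1b+/- range in both, and the groups overlapped in all 14 genes. Th, which makes the dopamine precursor (−0.96), and Aldh1a1 (−1.86) fell as well. In Lmx1b-/- over WT, Slc6a3 (−2.67), Pax5 (−2.33), Th (−1.61) and Aldh1a1 (−1.44) were also lower but did not pass the test. Ret, which fell by 0.51 in Lmx1b+/-, was at 0.11 there, and the median of the list was −0.18. The summed level of the 14 genes was 133 to 139 CPM in Lmx1b-/-, 95.1 to 155 CPM in Lmx1b+/- and 145 to 239 CPM in WT. The count was 2 without Lmx1b+/- 3, 3 without WT 1, WT 3 or Lmx1b+/- 1, and 8 without Lmx1b+/- 2. Of 16 cerebellar genes 4 fell and 0 rose, where 17.3% of all tested genes fell. Among the 4 were Pcp2 of Purkinje cells (−2.08) and Calb1, a calcium buffer of these cells (−0.65) that also fell in Lmx1b-/- (−0.85). Of the 16, 7 fell without Lmx1b+/- 2 and 2 without both WT 2 and Lmx1b+/- 3.

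Some genes that respond to neuronal activity and some of AMPK fell, where 17.3% of all tested genes fell and 19.4% rose. Of 16 immediate early genes 4 fell and 0 rose (median −0.26), among them Egr1 (log2 fold change −0.78) and Npas4 (−0.80), with 0 that fell without Lmx1b+/- 3, 1 without WT 1, and 1 without both WT 2 and Lmx1b+/- 3. Of 10 subunits and upstream kinases of AMPK, the energy sensor that the study links to Lmx1b, 4 fell and 1 rose. Prkab2 (−0.57), 2 upstream kinases, among them Camkk1 (−0.47), and the catalytic Prkaa2 (−0.31) fell, and Prkag1 (0.38) rose. The count that fell was 2 with the length trend removed, 3 with the length and GC trends removed and 2 without WT 1. Of 17 genes matched by symbol to the transcription factors in the study's text, 6 fell and 0 rose. These were Tef, Sf1, Srebf1, Srebf2, Rfx1 and Mtf1, with log2 fold changes of −0.61 to −0.42. The symbol Sf1 is that of splicing factor 1 in the mouse, while the study's text spells it out as steroidogenic factor 1. Of the 17, 2 fell without Lmx1b+/- 3 and 3 without WT 1. With the length trend removed 1 rose and 2 fell, and with both trends removed 1 rose and 1 fell, with a median of 0.11 in place of −0.16.

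Of 22 genes of cholesterol and fatty acid synthesis 5 rose and 10 fell, where 19.4% of all tested genes rose and 17.3% fell. Msmo1 (log2 fold change 0.62), Idi1 (0.62), Fdft1 (0.60), Fdps (0.52) and Cyp51 (0.38), enzymes of the sterol branch, rose. Fasn (−0.65), Acaca (−0.47), Scd1 (−0.79) and Scd2 (−0.63), which make fatty acids, and the regulators Srebf1 (−0.55) and Srebf2 (−0.53) fell, as did the late sterol enzyme Dhcr7 (−0.40). With the length trend removed, 5 rose and 3 fell, and with the length and GC trends removed 5 rose and 2 fell. Without WT 1, 5 rose and 6 fell. With library size alone 0 rose and 10 fell.

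The remaining lists are given by their counts, where 19.4% of all tested genes rose and 17.3% fell. Of 7 noradrenergic genes 2 fell, Th and Tfap2b (log2 fold change −0.76), and 0 fell without WT 1, WT 3 or Lmx1b+/- 3. Of 8 mural cell genes 1 rose, Kcnj8 (0.44), and 3 fell, Abcc9 (−0.56), Notch3 (−0.70) and Cspg4 (−0.78). Of 14 telencephalic genes 2 rose, among them Neurod6 (0.98), and 2 fell, Neurod2 (−0.67) and Eomes (−2.01), the last of which is also in the cerebellar list. Of 9 genes of peripheral sensory neurons and Schwann cells 1 rose and 5 fell, and of 7 genes of surface epithelium 1 rose and 1 fell. Of 7 genes of ependyma and cilia 1 rose, Pifo (2.00), while 4 rose and 1 fell without Lmx1b+/- 1 and 0 rose without both WT 2 and Lmx1b+/- 3. Of 4 tested genes of hypothalamus and pituitary 1 rose, Gh, which was at 0, 1.19 and 4.44 CPM in Lmx1b+/- compared with 0, 0.104 and 0 CPM in WT. Of 5 genes of the sex chromosomes 0 changed.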

How the data were processed

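Libraries of polyA RNA were sequenced by the study, and reads were aligned with HISAT2 to GRCm39 according to the submitters' processing notes. The counter, the annotation and any use of molecular identifiers are not given in the sources used here. The authors deposited raw counts per gene together with RPKM, counts scaled by gene length and library total, and 51884 of the 57180 identifiers (90.7%) matched a symbol. The most abundant identifier matched none. It took 4.56% of counts in WT 3, 21.9% and 18.4% in WT 1 and 2, and 13.7% to 22.7% in Lmx1b+/-. The TMM factor was 1.241 in WT 3 and 0.8361 to 1.003 in the other libraries of these 2 genotypes. The part of this identifier in the difference between scalings was not tested.

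The analysis of counts used edgeR 4.0.16 (R 4.3.3): low counts were filtered with filterByExpr (minimum count 10), libraries scaled by TMM, and the 3 genotypes fitted together with the quasi-likelihood test and Benjamini-Hochberg adjustment. On simulated data of 21305 genes with the same layout, 189 of 200 genes changed 2-fold were recovered (94.5%), with 11 false calls. The changed genes were drawn only from those above a minimum mean level, and as many were raised as lowered. No trend with length or GC content was simulated. In the data 36.7% of tested genes were called, so these rates do not describe the real contrast. RPKM served for gene length and for an alternative with limma 3.58.1 on log2(RPKM + 1), and DESeq2 1.42.0 was another alternative. Trends with length and GC content were removed by lowess (span 0.3, 97.8% of tested genes with a GC value).

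Named genes are Lmx1b, the 12 genes in each direction with the smallest p and no overlap between groups, up to 4 members with the smallest p and the highest RPKM in each list, and the 6 genes of the study's text. Further list members were named after their values were seen. The members and lists were chosen with earlier results of these data known. Some members of the lists are counted but not reported here by name.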

Additional observations from a re-analysis of the deposited data

How the results depend on the processing

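The counts of genes that changed moved by less than 1.5 times under RLE and upper quartile scaling, both filters on low counts, the 6-library fit, DESeq2, removal of the length and GC trends, and without WT 2 and Lmx1b+/- 3, between 5592 and 8233 genes. Similar counts do not mean the same genes. Of the 7977 genes, 5023 were called again with the length trend removed and 4664 with both trends removed. With library size only, 5787 of them were called again. Leaving out 1 library gave 5911 to 8404 genes, 3315 to 4524 higher and 2596 to 3880 lower, and 472 to 558 list members. With library size only, 2054 genes were higher and 5816 lower, and limma on log2(RPKM + 1) and log2(RPKM + 0.1) gave 2176 and 2170 higher, with median shifts of all genes of −0.242, −0.188 and −0.229. A minimum of 2-fold left 1770 genes, 1307 higher and 463 lower. Same-numbered libraries did not deviate together (correlations −0.0544, −0.157 and −0.0526), so the numbers give no pairing, and a fit with the replicate block called 7243 genes, of which 7148 were among the 7977.

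Without 1 library the log2 fold change of Lmx1b was −0.30 to 0.56, that of Tph2 −0.28 to 0.38, of Fev −0.39 to 0.24, of Slc17a6 −0.064 to 0.22 and of Snap25 −0.13 to 0.12. With library size only, Slc17a6 was at −0.20, Tph2 at −0.070, Snap25 at −0.20 and Chat at −0.075. With limma on log2(RPKM + 1), Lmx1b was at −0.030, Slc17a6 at −0.19, Tph2 at −0.11, Snap25 at −0.21 and Chat at −0.017. With log2(RPKM + 0.1) they were at −0.047 for Lmx1b, −0.19 for Slc17a6, −0.15 for Tph2, −0.21 for Snap25 and −0.029 for Chat. With the length and GC trends removed, Fev was at 0.20, Eif4g1 at 0.012 and Nts at −0.044, and with the length trend alone Tyrobp was at −0.020. Without WT 2 and Lmx1b+/- 3, Tph2 was at −0.38 and Snap25 at −0.060. The cause was not tested. The removal of the length and GC trends and of these libraries was chosen after seeing the data. With 3 libraries a group, no exact test of 1 gene can reach p below 0.1.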

Other observations

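The levels of the sex chromosome genes did not split all libraries cleanly. Xist, which marks cells with an inactive X chromosome, was at 1270 CPM in WT 2, 725 CPM in Lmx1b+/- 3, and 1054 and 1038 CPM in Lmx1b-/- 2 and 3. It was at 36.2 CPM in Lmx1b+/- 1, a library that also carries Y-linked transcripts. Ddx3y, on the Y chromosome, was at 3.22 CPM in WT 2 and 3.72 CPM in Lmx1b+/- 3, against 42.8 to 62.3 CPM in the libraries with low Xist.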
